A study of Mus musculus with 6 samples.

Results

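The 10 genes described here act in antigen presentation by the major histocompatibility complex (MHC), and were followed in the peak lists of activated mouse natural killer (NK) cells, 10 of 21887 protein-coding genes in all. They were chosen by name, 5 for each class: H2-Ab1, H2-Aa, H2-Eb1, Cd74 and Ciita for class II, and B2m, H2-K1, H2-D1, Tap1 and Nlrc5 for class I. The NK cells came from spleen and were grown for 5 days with IL-2 at 500 ng/mL, a cytokine that activates and expands them. One set came from B6 mice of genotype Tcf7+/+ (WT) and the other from mice of strain B6.129 Tcf7Tm1Cle and genotype Tcf7-/- (KO), which lack the gene for the transcription factor Tcf1. Chromatin immunoprecipitation (ChIP) used an antibody to Tcf1 or to H3K4me3, the histone mark of active promoters. Each combination of genotype and antibody was 1 library. Differences thus have no replicate check, no p-value is given, and genotype, strain background and library cannot be told apart. The labels give neither the number nor the age of the mice.

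MHC class I molecules stand on almost every nucleated cell and show peptides from inside the cell to CD8 T cells. NK cells also read them, through inhibitory receptors, as a sign of a healthy cell. MHC class II molecules show peptides from engulfed material to CD4 T cells and are made mainly by B cells, dendritic cells and macrophages. Resting mouse NK and T cells are not known as class II cells. The 2 classes have separate master regulators, Ciita for class II and Nlrc5 for class I. Both act on promoters with a shared architecture, in which a protein complex sits on an X box and a Y box at a fixed spacing.

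The promoter sequences are shown for a pair of class II and a pair of class I genes, because both classes are known for that architecture while the mark over them differed. RefSeq promoter sequences (GRCm38.p6) were given for 6 of the 10 members. The 250 bases before the transcription start site (TSS) are printed on the gene's own strand, 5′ to 3′. For H2-K1 this stretch lies inside the RefSeq gene, whose upper end is at 34000619. Capitals mark any match on either strand to the Y box (CCAAT), the X2 core (TGACG), an interferon response element (GAAANNGAAA) or the Tcf/Lef motif (CTTTGNT). They lie at chr17:34287824-34288073 (H2-Aa, minus strand), chr17:34305617-34305866 (H2-Eb1, plus strand), chr2:122147437-122147686 (B2m, plus strand) and chr17:34000348-34000597 (H2-K1, minus strand).
H2-Aa: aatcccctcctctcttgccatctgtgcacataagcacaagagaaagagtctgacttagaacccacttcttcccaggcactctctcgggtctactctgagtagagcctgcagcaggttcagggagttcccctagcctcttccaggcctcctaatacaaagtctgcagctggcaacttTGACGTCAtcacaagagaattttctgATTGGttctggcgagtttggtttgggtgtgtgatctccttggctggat
H2-Eb1: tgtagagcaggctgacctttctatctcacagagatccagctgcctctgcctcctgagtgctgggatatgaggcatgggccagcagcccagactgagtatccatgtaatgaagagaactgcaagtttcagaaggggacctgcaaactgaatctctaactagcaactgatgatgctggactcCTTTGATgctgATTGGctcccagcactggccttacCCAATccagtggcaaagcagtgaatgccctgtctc
B2m: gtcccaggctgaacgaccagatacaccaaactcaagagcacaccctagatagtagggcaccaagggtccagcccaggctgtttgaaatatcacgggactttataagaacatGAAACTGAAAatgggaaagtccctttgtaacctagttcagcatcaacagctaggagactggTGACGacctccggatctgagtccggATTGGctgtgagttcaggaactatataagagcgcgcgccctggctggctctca
H2-K1: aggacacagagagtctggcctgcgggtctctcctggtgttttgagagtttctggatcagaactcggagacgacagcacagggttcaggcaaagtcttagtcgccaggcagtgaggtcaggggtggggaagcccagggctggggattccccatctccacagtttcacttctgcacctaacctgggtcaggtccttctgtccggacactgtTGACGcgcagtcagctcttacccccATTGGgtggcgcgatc

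An X2 core was followed by an inverted Y box (ATTGG) in H2-Aa, B2m and H2-K1. From start to start the spacing was 26 bases in H2-Aa and 25 bases in B2m and in H2-K1. The promoter of H2-D1, not printed, had it at 25 bases as well. That of Tap1, also not printed, held 1 X2 core and 1 Y box without such a spacing. A spacing of 25 or 26 bases on either strand was present in 50 of 32851 promoters of this length (0.152%). These are the spacings seen in the members, whose promoters are part of the 32851, so the share is a description. In H2-Aa the core and its reverse overlap in the 8 letters TGACGTCA, and H2-Aa thus counted 2 matches. H2-Eb1 held 2 Y boxes and no X2 core of these letters, and its 1 Tcf/Lef match started 70 bases before the TSS. Of all promoters, 33.8% held a Y box, 17.8% an X2 core, 2.98% the interferon element and 16.0% a Tcf/Lef match. The interferon element was found in B2m, 139 bases before the TSS, and the Tcf/Lef motif in none of the 6 promoters but H2-Eb1. These matches describe letters and are no evidence of binding.

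Peaks are stretches that the authors' caller found enriched in 1 library, and tags are the reads counted in them. The H3K4me3 lists held 13771 peaks in WT and 11074 in KO, the Tcf1 lists 866 and 5139. Sequencing depth is unknown here. At Tcf7 itself, a Tcf1 peak of 123 tags was listed at the TSS in WT and none in KO, while H3K4me3 there had 525 and 535 tags. H3K4me3 peaks that overlapped between the libraries were joined into regions, and a gene was called marked in a library if a region within 1 kb of its TSS held a peak of that library. Of 21746 genes that could be read, 53.2% were marked in WT and 47.6% in KO. Ratios are log2 of KO over WT tags, centred on the median of the 10308 genes marked in both, where KO held 1.20 times the tags of WT. A gene was called different when this centred ratio lay beyond 1 in size with at least 100 tags in 1 library.

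The 2 classes differed in whether the mark was there at all. Of the 5 class II genes 1 was marked in WT and 0 in KO, and of the 5 class I genes 4 were marked in both. The background of marked promoters, 53.2% in WT and 47.6% in KO, lies between these shares. The fifth class I gene, Nlrc5, had no TSS in the sources used here and was not counted as marked. Cd74 and Ciita had none either, and genes without a TSS could only be counted as unmarked or left out. The TSS of H2-Ab1 came from the gene features of the peak lists, not from a RefSeq promoter. For these members the count thus depended on the lists themselves or on a missing TSS. Members are genes and not replicates, so the contrast between the classes is a description.

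**Figure D1:**
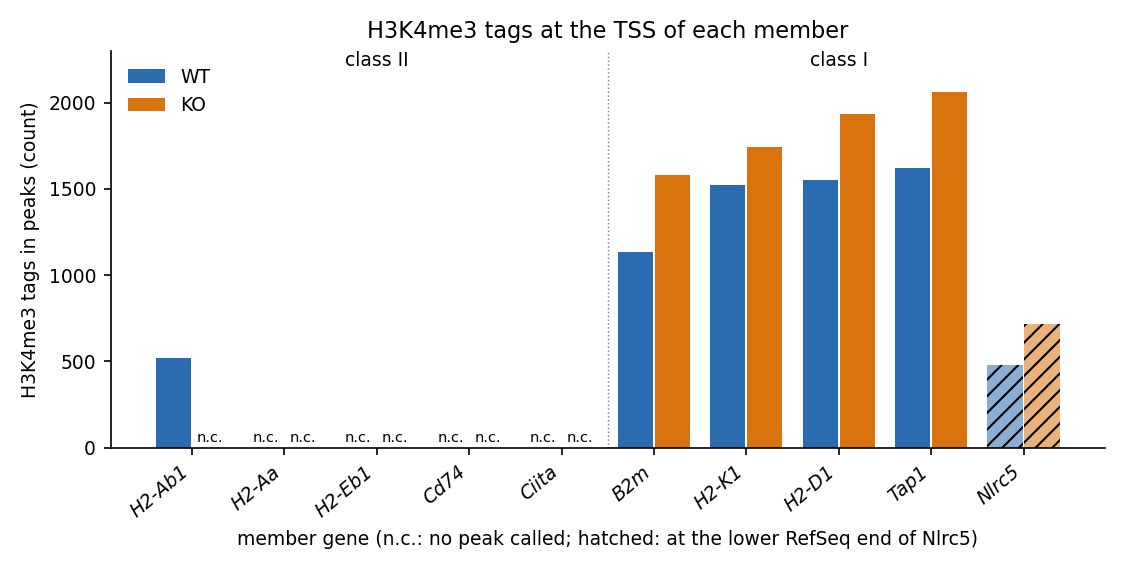
H3K4me3 tags (count) in peaks at the TSS of each member, 1 WT library (blue) and 1 KO library (orange). The 4 class I genes with a TSS hold 1136 to 2060 tags in both libraries, and of the class II genes H2-Ab1 alone has a peak, in WT; n.c. stands for no peak called, and hatched bars are the region at the lower RefSeq end of Nlrc5.

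H2-Ab1, which encodes the beta chain of the class II molecule I-A, was the class II member with a marked promoter. It lies on chromosome 17 from 34263227 to 34269418 on the plus strand (GRCm38/mm10). In WT its peak ran from 34263046 to 34265879, a width of 2834 bp with 520 tags, a score of 3059.52 and a fold enrichment of 41.43 as the authors give them. In KO the nearest listed peak lay 57.0 kb from the gene. Its WT tags were below the median of 565 tags of promoters marked in both, and its width was above the median of 2344 bp. Since the lists hold called peaks only, the KO tags are unknown and no fold is given. Promoters marked in WT alone made up 5.84% of all genes, against 0.152% in KO alone. H2-Ab1 ranked 6 of 1270 genes among them by tags, in a group with a median of 75 tags. Genes that share a region count separately in this rank, such as Hjurp and Trpm8 with the same 1747 tags. Its place there rests on a TSS taken from the gene features of the peak lists.

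How often a WT peak lacked a KO peak depended strongly on its tags. Of the 1292 WT peaks with 17 to 49 tags, 90.6% overlapped no KO peak, and of the 2577 with 200 to 389 tags, 3.88%. Within 25% of the tags at H2-Ab1 (390 to 650) there were 2816 WT peaks, of which 16 had no KO peak (0.568%, 95% Wilson interval 0.350 to 0.921%, counting error only). H2-Ab1 thus belonged to a small group among WT peaks of like tags, those without a KO counterpart. KO peaks at least as wide as that at H2-Ab1 numbered 2282, and the lowest held 160 tags. The lowest KO peak of any width held 22 tags. Neither value tells how many KO tags at H2-Ab1 would have gone uncalled. H2-Ab1 was already known from an earlier reading of these lists, so its place in the group without a KO counterpart is a description.

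**Figure D2:**
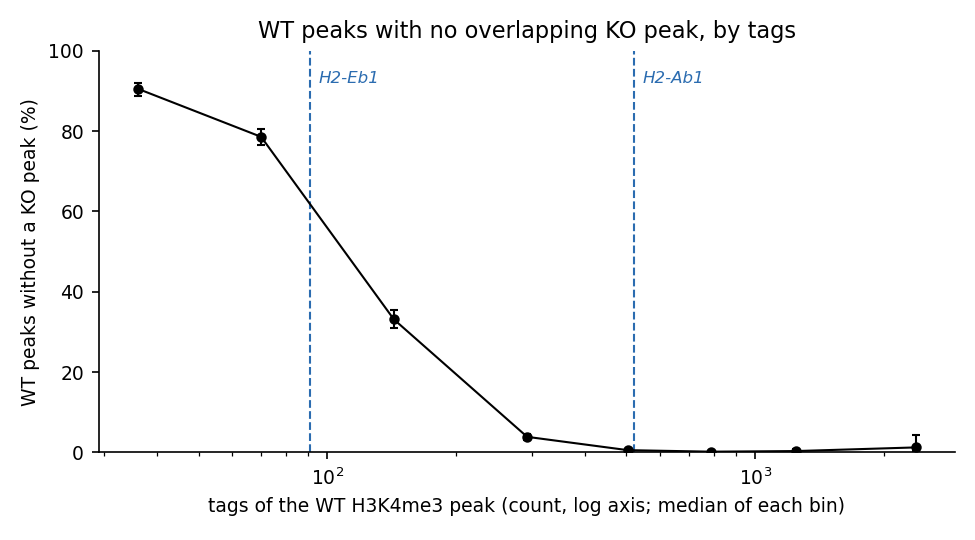
Share of WT H3K4me3 peaks that overlap no KO peak (percent, with 95% Wilson intervals) against the tags of the WT peak (count, log axis, median of 8 bins). The share falls from 90.6% in the lowest bin to 0.570% in the bin that holds H2-Ab1, and dashed lines mark the WT peaks of H2-Eb1 (91 tags) and H2-Ab1 (520 tags).

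The H2-Ab1 peak began 163 bp before the TSS and ended 2670 bp after it, with its summit 1453 bp downstream. Summits of the WT peaks at B2m, H2-K1, H2-D1 and Tap1 lay 252, 314, 241 and 452 bp downstream of the TSS. In KO these 4 summits lay at 299, 292, 239 and 415 bp. Distances at H2-K1 are from its start at 34000333, which lies inside its RefSeq gene (upper end 34000619). The class I peaks began 1054 to 1971 bp before the TSS in WT and 896 to 1965 bp before it in KO. H2-D1 has a further annotated start at 35262730, from which its WT peak began 690 bp upstream with the summit 605 bp downstream, and its KO peak began 532 bp upstream with the summit 603 bp downstream. All 5 WT peaks covered the TSS and reached further downstream than upstream. The H2-Ab1 peak reached less far upstream than the others, and its summit lay further downstream, from either start of H2-D1.

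**Figure D3:**
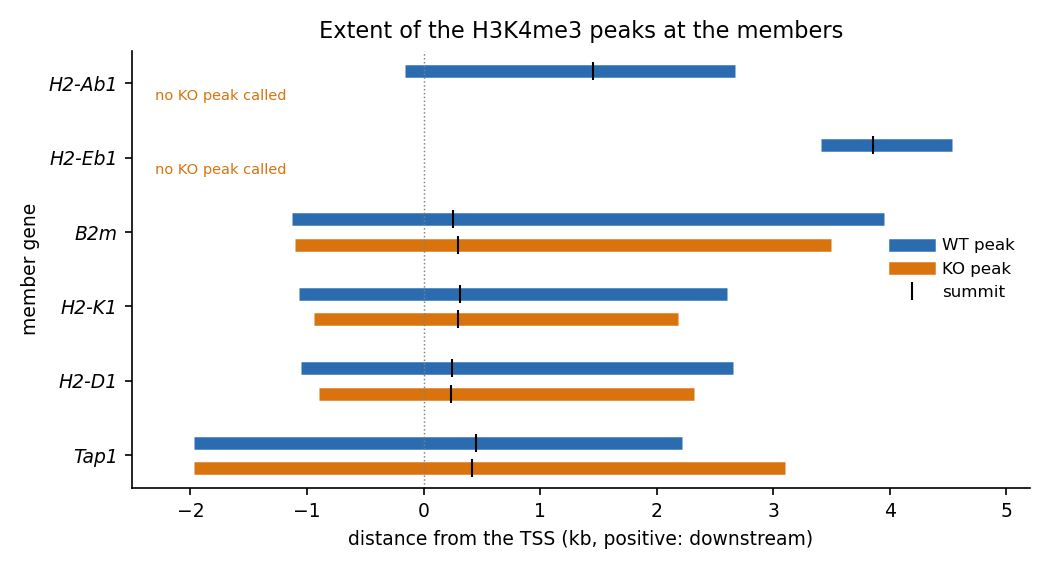
Extent of each H3K4me3 peak relative to the TSS (kb, positive is downstream) at 6 members, WT in blue and KO in orange, with the summit as a black tick. Class I peaks have summits 239 to 452 bp downstream in both libraries (H2-D1 is drawn from the annotated start nearest the summit, at 35263094), while the WT peak of H2-Ab1 has its summit at 1453 bp and that of H2-Eb1 lies wholly within the gene.

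H2-Eb1, which encodes the beta chain of the second class II molecule, I-E, had no peak within 1 kb of its TSS in either library. A weak WT peak of 91 tags lay inside the gene, from 34309295 to 34310413 on chromosome 17, with its summit 3.85 kb downstream of the TSS. Exon positions were not used here, so it was not placed in an exon or intron. In KO the nearest peak was 99.7 kb from the gene. At this strength the lack of a KO peak was common: 782 of 1149 WT peaks with 69 to 113 tags had none (68.1%, interval 65.3 to 70.7%).

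H2-Aa, which encodes the alpha chain that pairs with the product of H2-Ab1, lies between these genes on chromosome 17 (34282744 to 34287823, minus strand). It was unmarked in both libraries, and the nearest WT peak was 16.9 kb away. Its distance to the nearest KO peak was 76.5 kb. Cd74 encodes the invariant chain, which guides class II molecules to the compartment where peptides are loaded. It lies on chromosome 18 from 60803849 to 60812652, and its nearest peaks were 27.2 kb away in WT and 27.1 kb in KO. Ciita, the class II master regulator, lies on chromosome 16 from 10480014 to 10531064, with the nearest peak 10.0 kb away in both. For Cd74 and Ciita no TSS was given, but neither gene end had a peak within 1 kb in either library. The WT mark at H2-Ab1 thus stood beside unmarked promoters of its partner chain, of the invariant chain and of the regulator.

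Around H2-Ab1 the KO list was empty over 380 kb, from 34206202 to 34586505 on chromosome 17. The stretch held the TSSs of 11 protein-coding genes and 3 WT peaks, of 520, 91 and 70 tags. The weakest was attached to BC051142 in the deposited lists. Closer to H2-K1, further WT peaks of 50 tags just downstream of the H2-DMa start at 34135182 and of 56 tags upstream of Tap1 had no KO peak. Long stretches without a KO peak were common: 1489 were at least as long, 98 of them with 3 or more WT peaks. Over the part of the MHC from H2-K1 to H2-D1, 33 of 45 regions were called in both libraries, 12 in WT alone and 0 in KO alone. The share called in WT alone was 26.7% there and 21.98% genome-wide.

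**Figure D4:**
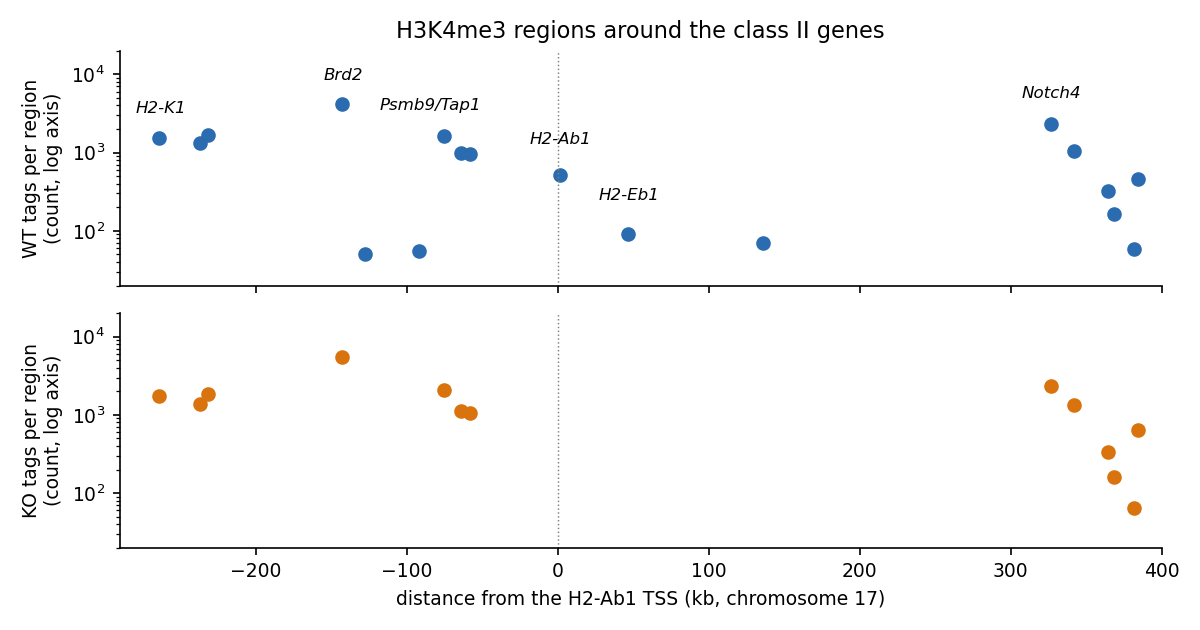
H3K4me3 regions on chromosome 17 by distance from the H2-Ab1 TSS (kb), with the tags of each region (count, log axis) in WT (top) and KO (bottom). In the range drawn, whose last region lies at Atf6b, regions from H2-K1 to Tap2 and from Notch4 onward have points in both panels, except for a pair of weak WT regions of 50 and 56 tags, and the 380 kb between holds 3 WT points and no KO point.

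The class I genes carried strong and broad marks in both genotypes. B2m encodes beta-2 microglobulin, the light chain of every class I molecule, on chromosome 2 (122147687 to 122153082, plus strand). It held 1136 tags over 5073 bp in WT and 1581 tags over 4593 bp in KO. The centred log2 ratio was 0.21 (95% counting interval 0.10 to 0.32), and 0.30 per kb of peak. This ratio was higher than that of 85.7% of genes marked in both. Counting intervals above 0 were found for 19.5% of all such genes and intervals below 0 for 22.1%, so an interval that leaves out 0 is common.

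H2-K1 and H2-D1 encode the heavy chains of the classical class I molecules. H2-K1 (chromosome 17, 33996012 to 34000619, minus strand) held 1520 tags over 3667 bp in WT and 1743 over 3119 bp in KO. Its ratio was -0.07 (interval -0.17 to 0.03). H2-D1 (chromosome 17, 35263094 to 35267497, plus strand) held 1551 tags over 3707 bp and 1935 over 3218 bp. Its ratio was 0.05 (interval -0.04 to 0.15). For both genes the interval spans 0, and the KO peak was narrower than the WT peak. Per kb of peak the ratios came to 0.11 and 0.20. The heavy chain genes resemble each other in sequence, reads can be shared between them, and the lists pair the H2-D1 peak with H2-L too, so their tags are uncertain.

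Tap1 encodes a subunit of the transporter that brings peptides into the endoplasmic reticulum. It lies on chromosome 17 (34187556 to 34197225, plus strand) and shares its start region with Psmb9, a subunit of the immunoproteasome, which cuts those peptides. The shared region held 1618 tags over 4192 bp in WT and 2060 over 5066 bp in KO. The ratio was 0.08 (interval -0.01 to 0.18). Here the KO peak was the wider one, and per kb the ratio was -0.25. Its direction therefore depended on the measure.

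Over the 4 class I members the median ratio was 0.07, against 0 for all genes by construction, and 0.16 per kb of peak. None of the 4 passed the call, which 0.0873% of genes marked in both did upward and 1.17% downward. Their WT tags exceeded those of 86.4% (B2m), 94.7% (H2-K1), 95.1% (H2-D1) and 95.8% (Tap1) of promoters marked in both. Their WT widths exceeded those of 86.0 to 95.1% of such promoters. In KO the corresponding shares were 92.2 to 96.9% for tags and 80.8 to 96.6% for width.

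Nlrc5, the class I regulator, was not listed as a feature in any of the 4 lists. Its RefSeq gene runs from 94434335 to 94527272 on chromosome 8. A region at its lower end held 480 tags over 3060 bp in WT and 720 over 3147 bp in KO, and no region lay at the upper end. The lists pair this region with the lncRNA gene 9330175E14Rik. Read at that end, the ratio was 0.32 (interval 0.15 to 0.49), and 0.22 per kb. Whether this region is the promoter of Nlrc5 could not be told from the files.

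**Figure D5:**
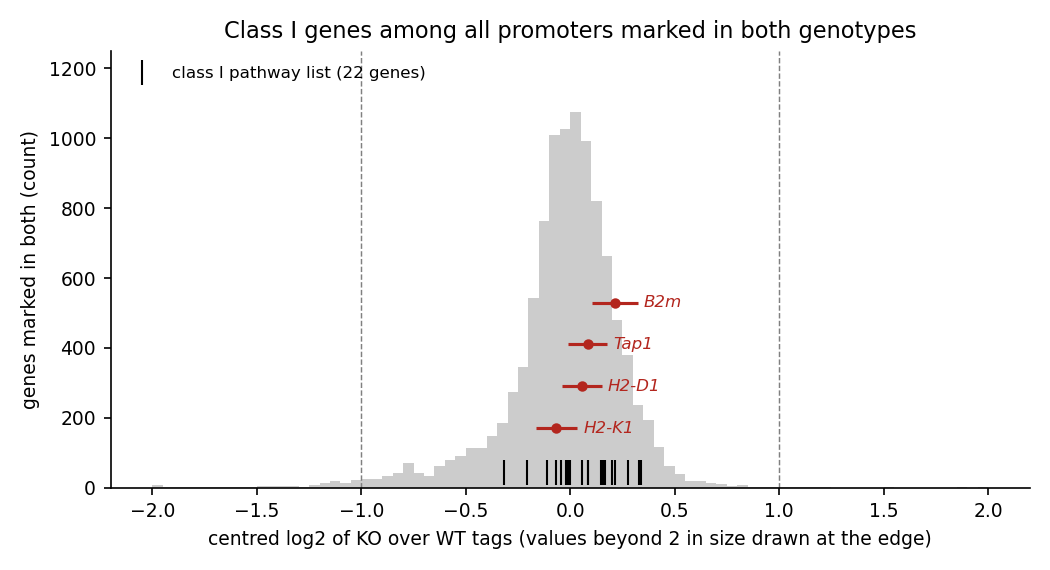
Distribution of the centred log2 ratio of KO over WT tags for 10308 genes marked in both (grey, count of genes), with the 4 class I members (red points, bars are 95% counting intervals) and the class I pathway list of 22 genes (black ticks). All lie within 0.34 of 0, inside the dashed lines at -1 and 1.

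The wider class I pathway was marked throughout. Of 23 listed genes 22 could be read, and all 22 were marked in both libraries, against 47.4% of all genes. Their ratios ran from -0.32 to 0.34 with a median of 0.08, 14 above 0 and 8 below, and none passed the call. The class I gene with most WT tags was H2-Q6, of the Qa group, with 1838 tags in WT and 1912 in KO (-0.21). The lowest and the highest, chosen after their values were seen, were H2-Q7 (1603 and 1547 tags, -0.32) and H2-M3, which presents formylated peptides (310 and 471 tags, 0.34). Genes of the Qa group are near-copies of each other, which makes their tags uncertain.

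Of 16 class II pathway genes, 6 were marked in WT and 5 in KO, with H2-Ab1 as the one marked in WT alone and 10 marked in neither (46.6% of all genes were). None of the 5 marked in both passed the call. They were the 3 subunits of the RFX complex, which binds the X box of both classes, the thiol reductase gene Ifi30, and H2-DMa. Rfx5 held 473 and 627 tags (0.14), Rfxap 880 and 890 (-0.25), and Rfxank 400 and 502 (0.06). Ifi30 held 233 and 267 tags (-0.07). H2-DMa was counted through RefSeq starts at 34122832 and 34125518, in a region of 4125 and 5545 tags that it shares with Brd2. At its start at 34135182 the tags were 50 in WT, with no peak in KO. H2-DMb1, H2-DMb2, H2-Oa, H2-Ob, H2-Eb2 and Ctss, which act in peptide loading, in its inhibition, as a class II chain or in cleaving the invariant chain, were unmarked in both.

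Genes through which interferon gamma induces both classes were marked in 8 of 8 cases in WT and 7 of 8 in KO. Of all genes, 53.2% were marked in WT and 47.6% in KO. Over the 7 marked in both, the median ratio was -0.05. Irf8, a lymphoid and myeloid transcription factor gene, held 2476 and 2497 tags (-0.25), and Irf2 held 2240 and 2785 (0.05). Ifngr2, a chain of the interferon gamma receptor, was marked in WT alone with 62 tags. Of WT peaks with 50 to 99 tags, 78.6% had no KO peak.

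Because class II genes are read in other cells of the spleen, markers of those cells were read the same way. Of all genes, 53.2% were marked in WT, 47.6% in KO and 5.84% in WT alone. Summed tags below are not centred, while KO held 1.20 times the tags of WT at the median gene marked in both. In bulk samples, fewer cells of a type and less signal per cell cannot be told apart. Of 6 B cell markers 0 were marked in either library, Ms4a1, Cd79a and Pax5 among them. Of 11 myeloid and dendritic markers 3 were marked in WT and 2 in KO, with summed tags of 852 and 863. They were Zbtb46 (587 and 598 tags, -0.24), Itgax, an integrin gene also active in NK cells (170 and 265, 0.38), and Cd14 in WT alone (95). Csf1r, Lyz2, Flt3, Xcr1, Adgre1, Spi1, Cd68 and Siglech had no peak in either. Of 8 T cell markers 3 were marked in WT and 1 in KO, with summed tags of 470 and 319. Cd3e (64) and Cd3d (35) were marked in WT alone, and Lat in both (371 and 319, -0.48). At the tags of Cd3d, Cd3e and Cd14 the lack of a KO peak was common. It held for 90.6% of WT peaks with 17 to 49 tags and 78.6% of those with 50 to 99. All 10 NK cell markers were marked in both, with ratios from -0.46 to 0.59 and a median of 0.02. Il2rb and Eomes had the most WT tags (3023 and 3440 tags, -0.08, and 2434 and 2930, 0.00). The lowest ratio was that of Klrk1 (388 and 339 tags, -0.46, interval -0.67 to -0.25) and the highest that of Gzmb (1022 and 1842, 0.59, interval 0.48 to 0.70). A part of other cells in the WT mark at H2-Ab1 was not tested.

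No Tcf1 peak of the WT list lay within 50 kb of a member. The background was 3.19% of genes with such a WT peak and 15.5% with a KO peak. The distance from gene to nearest WT Tcf1 peak ran from 367 kb at H2-D1 to 1535 kb at Nlrc5, and was 627 kb at H2-Ab1. In the KO list 1 member had a peak within 50 kb. It lay 20.1 kb from the TSS of B2m, from 122127274 to 122127685 on chromosome 2, with 14 tags, a score of 53.32 and a false discovery rate (FDR) of 81.73%. Its 14 tags equal the median of the KO Tcf1 list, whose median FDR was 96.9%, and Tcf1 is the protein that KO cells lack. The WT Tcf1 list had a median FDR of 26.6%, a lowest FDR of 3.45% and at least 13 tags per peak. The lack of a listed WT peak near a member is thus no evidence that Tcf1 was absent there. The Tcf/Lef match in the H2-Eb1 promoter had no Tcf1 peak over it in either list.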

How the data were processed

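Per the labels, chromatin was fixed in 1% formaldehyde for 10 minutes, and single-end reads of 100 bases came from inserts of 100 to 400 bp. Bowtie2 2.1.0 and MACS 1.4 stand in the submitters' processing notes, next to mm10, GRCm38 and GRCh37 without stated roles. Positions were read as GRCm38/mm10, since they match the mouse genes of RefSeq GRCm38.p6. How peaks were called, and against which control, is not given in the sources used here. The 2 input libraries were not analysed here.

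Per the file headers, each deposited list gives 1 library's peaks with a count of tags (not scaled to depth), a score of 10 times the negative log10 of the p-value (mostly capped at 3100), a fold enrichment over the caller's background (a ratio), and an FDR in percent. The deposited rows, 1 for each peak and gene feature, were reduced to distinct peaks, and starts, which count from 0, were moved by 1.

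TSSs came from RefSeq promoters and from Ensembl features of the lists, for 20082 of 21887 genes. Genes without one were kept as unmarked if no peak lay within 2.5 kb of either end (1664), and 141 were left out. Regions were merged at 1 bp of overlap. Tags were summed per library and ratios given with 95% Poisson counting intervals. PCR copies were not identified, so intervals cover counting error only. The named genes were the members, list genes marked in 1 library alone or past the call, and the 2 of most WT tags per list. Other list genes were named after their values were seen, to give the extremes of a list or to say which of its members were marked or unmarked. A pair of listed marker genes is not reported here. The members and lists were chosen with earlier results of these data known. The ratio and merging code was tested on simulated data. The software was Python 3.11.15 with pandas 2.3.3, numpy 2.4.6, matplotlib 3.10.9 and scipy 1.17.1.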

Additional observations from a re-analysis of the deposited data

How the results depend on the processing

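Of 70 alternative values, 61 stayed within the counting interval or the same count and 9 did not. The counts of marked members (1 and 0 for class II, 4 and 4 for class I, in WT and KO) were the same without merging, with windows of 0 and 2.5 kb, with scores of at least 100, with FDRs of at most 1% and with lists of equal length. Without centring, the ratios were 0.48 for B2m, 0.20 for H2-K1, 0.32 for H2-D1 and 0.35 for Tap1. Per kb of peak they were 0.11 for H2-K1, 0.20 for H2-D1 and -0.25 for Tap1. Ratios of H2-K1 and Tap1 thus changed sign among the settings, with ranges of -0.07 to 0.20 and -0.25 to 0.35. Leaving out the centring adds the same 0.26 to every ratio, and the ratio per kb also takes in the peak widths. The count of 1 member near a KO Tcf1 peak fell to 0 at 10 kb and to 0 with scores of at least 100. With Nlrc5 included at its lower RefSeq end, an alternative added after seeing the data, the class I median of 0.07 became 0.08. It was 0.16 per kb of peak and 0.07 without merging and with windows of 0 and 2.5 kb. No paired analysis was possible because each group held 1 library. The unknown depth limits what an uncalled peak can show.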

Other observations

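Further genes of the same MHC stretch, chosen after their values were seen, are given as values. Ltb, which encodes lymphotoxin beta, held 696 tags in WT and 277 in KO, a centred log2 ratio of -1.59 (95% counting interval -1.79 to -1.39) and -1.21 per kb of peak. Nearby, Lta, which encodes lymphotoxin alpha, was marked in WT alone with 103 tags, and Lst1 in WT alone with 179. The heat shock genes Hspa1b and Hspa1a were marked in WT alone with 147 and 110 tags. Of WT peaks with 100 to 199 tags, 33.1% had no KO peak.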
